A study of Mus musculus with 6 samples.

Results

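Transcripts of 10 repair and angiogenic factors were followed in BMDMs (bone marrow-derived macrophages) that had been co-cultured with neutrophils from injured spinal cord. They were Igf1, Tgfb1, Tgfbi, Vegfa, Vegfb, Pdgfa, Pdgfb, Hbegf, Gdf15 and Inhba, taken by gene symbol from a table of 55335 mouse Ensembl identifiers in which each symbol matched 1 identifier. All 10 had a mean of at least 0.5 FPKM (a fragment count corrected for transcript length and for the total of the library) over the 6 libraries and were among the 13367 genes tested. Tgfbi is the exception to the name of the group, since it encodes a matrix protein induced by TGF-beta and not a growth factor.

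The BMDMs were of Cd177 WT genotype in both groups and had been grown from marrow for 7 days with 25 ng/ml M-CSF, the growth factor that drives macrophage differentiation. Neutrophils were isolated with magnetic beads from the spinal cord lesion 3 days after contusion, from Cd177 WT mice for 3 libraries and from Cd177-/- (KO) mice for the other 3. After 24 h of direct contact the macrophages were, according to the labels, sorted by flow cytometry and their RNA was sequenced. The mice of the study were adult male C57BL/6 animals, and the deletion was carried by the neutrophil donors in the KO group only. CD177 is a surface glycoprotein of neutrophils. The labels do not say how many mice or marrow cultures stood behind a library, so the p-values measure the spread between these 3 and 3 samples, which may be technical. No BMDMs cultured without neutrophils were analysed here.

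These factors act on the cells that close a wound. VEGF-A draws blood vessels into tissue through receptors on endothelium, PDGF chains recruit pericytes and fibroblasts, TGF-beta and activin steer matrix production and modulate inflammation, HB-EGF and other EGF ligands act on epithelial, glial and stromal cells, and IGF-1 supports survival and growth of neurons, muscle and myelinating cells. GDF15 is a stress-induced member of the TGF-beta superfamily. Macrophages are a main source of several of these proteins in healing tissue, and most of them are released as precursors, bound to carriers or held in a latent form, so that transcript and activity can part.

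The 10 transcripts separated into a falling and a rising set of 5 each. Between libraries labelled WT and libraries labelled KO, Vegfa, Inhba, Hbegf, Tgfbi and Pdgfa fell, and Gdf15, Pdgfb, Tgfb1, Igf1 and Vegfb rose (limma on log2(FPKM + 0.5), Benjamini-Hochberg adjusted over 13367 genes, threshold 0.05). The 10 of 10 members called stand beside 37.6% of all tested genes, the 5 higher beside 27.1% and the 5 lower beside 10.5%. The values of the 2 groups did not overlap for 10 of 10 members, which was also so for 51.9% of tested genes. At a fold change above 2 with an unadjusted p-value under 0.05, which is the threshold of the study, 6 members passed (4 lower and 2 higher) beside 11.1% of tested genes. Vegfb is the weakest of the calls: scaled by the median of ratios its log2 difference was 0.11 with an adjusted p of 0.46 in limma, and its groups then overlapped. In bulk RNA, fewer cells of a type and less RNA per cell cannot be told apart, which holds for each value given here.

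**Figure D1:**
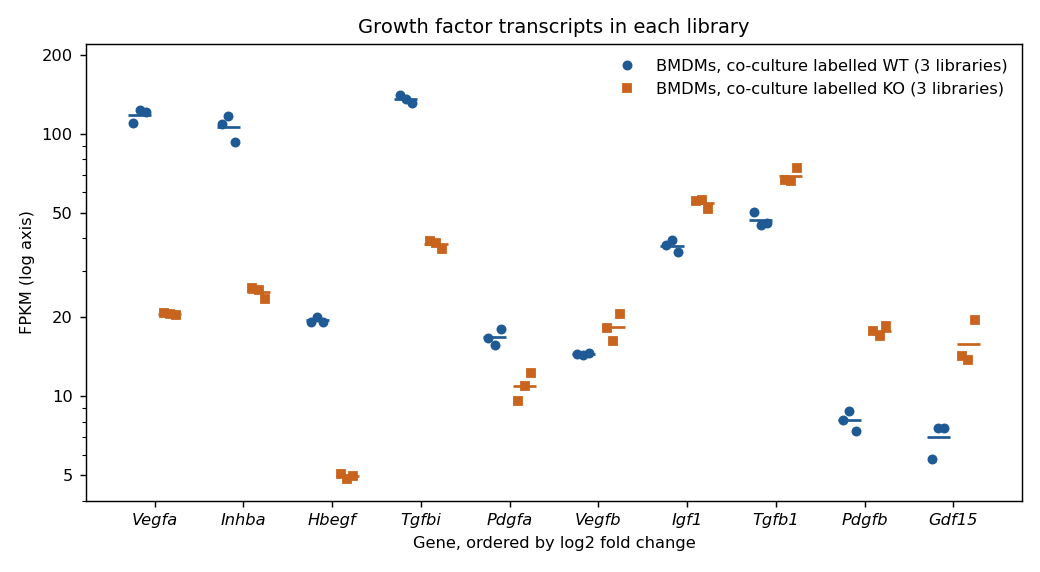
FPKM of the 10 transcripts in each of the 6 libraries, on a log axis, with genes ordered by log2 fold change. Circles are libraries labelled WT, squares are libraries labelled KO and the bars are group means of 3 libraries. The 5 genes on the left have all squares below all circles, and the 5 on the right have all squares above all circles.

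Promoter sequences are shown for the 3 transcripts with the highest level in the libraries labelled WT, which all fell, and for Gdf15, the member with the largest rise. RefSeq (GRCm38.p6) gave the bases before the transcription start for 8 of the 10 members, and where it listed 2 starts the start nearest the 5′ end of the gene was used. The 250 bases before the start were at chr17:46032378-46032627 on the minus strand for Vegfa, at chr13:16011601-16011850 on the plus strand for Inhba, at chr13:56609336-56609585 on the plus strand for Tgfbi and at chr8:70632457-70632706 on the minus strand for Gdf15. Each is written 5′ to 3′ and ends at the base before the start. Capitals mark letters that match 1 of 5 motifs on either strand.
Vegfa: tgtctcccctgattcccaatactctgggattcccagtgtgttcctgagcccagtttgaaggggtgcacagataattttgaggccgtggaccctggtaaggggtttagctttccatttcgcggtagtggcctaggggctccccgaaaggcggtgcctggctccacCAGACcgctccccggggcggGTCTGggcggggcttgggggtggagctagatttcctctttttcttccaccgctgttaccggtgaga
Inhba: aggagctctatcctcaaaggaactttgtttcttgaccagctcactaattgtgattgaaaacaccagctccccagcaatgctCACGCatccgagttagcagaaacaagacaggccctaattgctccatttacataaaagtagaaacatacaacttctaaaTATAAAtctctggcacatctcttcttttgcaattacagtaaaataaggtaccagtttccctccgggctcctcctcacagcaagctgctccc
Tgfbi: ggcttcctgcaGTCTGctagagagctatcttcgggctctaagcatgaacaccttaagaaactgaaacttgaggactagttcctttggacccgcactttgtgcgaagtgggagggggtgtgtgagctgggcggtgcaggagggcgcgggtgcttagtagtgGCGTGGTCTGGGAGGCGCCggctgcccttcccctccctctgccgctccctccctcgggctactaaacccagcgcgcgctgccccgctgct
Gdf15: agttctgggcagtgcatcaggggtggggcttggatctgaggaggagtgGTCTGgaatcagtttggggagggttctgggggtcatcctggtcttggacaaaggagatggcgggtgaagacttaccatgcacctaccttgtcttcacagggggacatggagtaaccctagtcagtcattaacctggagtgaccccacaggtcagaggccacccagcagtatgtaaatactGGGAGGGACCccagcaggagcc
The motifs were the core of the hypoxia response element (ACGTG or GCGTG), AP-1 (TGANTCA), NF-kB (GGGA and CC with 4 bases of any kind between), the SMAD-binding letters CAGAC and the TATA box (TATAAA).

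In these windows Vegfa held CAGAC at 86 and, on the opposite strand, at 66 bases before the start and no other of these motifs. Inhba held a hypoxia core at 169 and a TATA box at 91 bases before the start, the only TATA box among the 8 members. In Tgfbi a hypoxia core at 90 bases before the start ran straight into a SMAD match at 85, whose last base was shared with an NF-kB match at 81, and a further SMAD match lay at 239. Gdf15 held an NF-kB match at 22 and a SMAD match at 202 bases before its start. Over the 8 members the hypoxia core was present in 6, against 38.6% of all 32851 promoters of the same length, the NF-kB letters in 6 against 17.6%, CAGAC in 3 against 42.2%, TATAAA in 1 against 12.4% and the AP-1 letters in 1, Igf1, against 6.75%. The 8 windows ran from 43.2% GC for Inhba to 76.4% for Vegfb, and the shares of all promoters were not matched for GC. The starts used for Igf1 and Pdgfa lay 2846 and 2426 bases from the GENCODE 5′ end of the gene. A match is a run of letters and not a measured binding site, and the rising and the falling members both included promoters with hypoxia and NF-kB letters.

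The libraries carried the markers of macrophages in both groups, with a summed level of 10 macrophage genes of 6825 to 8181 FPKM in libraries labelled WT and 7415 to 8119 in libraries labelled KO, most of it the lysozyme gene Lyz2. Of these 10 genes 2 were called higher and 2 lower, and the falls, named here after their values were seen, were Cd14, a co-receptor for endotoxin (1009.5 ± 150.1 to 99.4 ± 8.39 FPKM, log2 -3.33), and the Fc receptor gene Fcgr1 (121 ± 2.67 to 33.8 ± 0.714, log2 -1.83). The rises, named in the same way, were Adgre1 (241 ± 20.5 to 297 ± 15.6 FPKM, log2 0.30) and Mertk (19.3 ± 3.74 to 31.9 ± 4.31, log2 0.72). For 7 of the 10 genes the mean was higher in libraries labelled KO. Transcripts that mark neutrophils were more abundant in the group labelled KO, where 18 genes summed to 578 to 593 FPKM against 216 to 282, 10 of 12 tested were called higher and 1 lower, and S100a9 went from 90.5 to 234 FPKM. Ly6g, a defining neutrophil marker, was listed at 0 in the 3 libraries labelled WT and at 0.660, 0.547 and 0.403 FPKM in those labelled KO. Cd177 itself was higher in the libraries labelled KO, at 1.97 ± 0.27 against 0.458 ± 0.13 FPKM (SD, n = 3 each; limma adjusted p = 0.000827). The deletion was in the neutrophil donors of the KO group, and the BMDMs were Cd177 WT in both groups. If it came from the neutrophils, this level would go against the labels, but its source was not tested. Every direction given here rests on the labels as deposited. Which part of the gene was deleted is not given in the sources used here. B-lineage markers summed to 0.711 to 1.35 FPKM in libraries labelled WT and to 13.1 to 15.4 in those labelled KO, with Ighm highest. Endothelial markers summed to 2.99 to 5.13 and 2.89 to 4.16 FPKM, fibroblast and pericyte markers to 417 to 597 and 493 to 555 with Col1a1 highest, platelet markers to 849 to 1350 and 793 to 856 with Pf4 highest, spinal cord markers to 4.66 to 5.94 and 5.81 to 7.10 with Mog, Aqp4 and Snap25 at 0 throughout, and dendritic cell markers to at most 1.24. The part of these markers in the changes of the growth factors was not tested. The table favours rises: the median log2 difference of all tested genes was 0.19, and scaling by the median of ratios turned 3619 higher and 1408 lower calls into 2156 and 2215. Each member's log2 difference therefore has to be read against 0.19, and the range over 4 other scalings is given with it. The implied depth was 17600000 to 20300000 fragments per library, and counted on the shortest coding transcript of each gene, the lowest value among the members was 51 fragments, for Pdgfb. Both are rough figures, since most low values did not lie near whole multiples of the step that gave the depth. Replicates 3 of both groups stood apart from the others of their group, and 9 of the 10 members kept their calls without them, Vegfb being the exception.

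Vegfa, the main angiogenic ligand, showed the largest change of the 10. It was at 109.5, 124 and 121 FPKM in libraries labelled WT and at 20.7, 20.5 and 20.4 in those labelled KO. The 3 KO values lay within a narrow band far below the lowest WT value, and the mean went from 118 ± 7.53 to 20.5 ± 0.153 FPKM (SD, n = 3), a level 5.75 times lower. Its log2 difference was -2.49 (SE 0.08, limma adjusted p = 3.55e-06), between -2.71 and -2.50 under other scalings, and 1.20% of tested genes changed more in either direction. The gene lies on chromosome 17 at 46016993 to 46032369 (minus strand, GRCm38, GENCODE M21).

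Vegfb, a relative that signals through VEGF receptor 1 (Flt1) and is linked to vessel survival and lipid handling, went the other way by a small amount. Its FPKM was 14.5, 14.4 and 14.6 in the libraries labelled WT against 18.2, 16.3 and 20.6 in those labelled KO. WT values were nearly equal, KO values spread over 11.8% of their mean (SD), and KO replicate 2 was the closest to the WT group. The log2 difference of 0.32 (SE 0.10, 95% interval 0.08 to 0.57, limma adjusted p = 0.0462) was 0.13 above the median of all genes, and its call was lost in 13 of 21 alternatives, among them leaving out any library but KO replicate 2 (0.24 to 0.41 over the 6 omissions). Under other scalings the difference was 0.11 to 0.35. Within a library, the ratio of Vegfa to Vegfb was 8.14 ± 0.532 in libraries labelled WT and 1.13 ± 0.136 in libraries labelled KO (SD, n = 3 libraries each). In KO replicate 3 Vegfa was just below Vegfb, at a ratio of 0.991. Ratios within a library do not depend on the scaling between libraries. This pair and the other ratios below were chosen after the values were seen.

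Of the remaining VEGF family, 6 ligands and receptors were tested, 1 rose, 2 fell and 3 did not pass (median log2 0.03, against 0.19 over all genes). Vegfc, a ligand of lymphatic endothelium, fell from 2.75 ± 0.27 to 0.850 ± 0.11 FPKM (log2 -1.27, adjusted p = 0.000409, limma). The receptor Kdr (VEGFR2) was low throughout and fell from 0.913 ± 0.25 to 0.186 ± 0.0656 FPKM (log2 -1.03, limma adjusted p = 0.0049), while Flt1 stayed under the level tested, at 0.128 and 0.0418 FPKM on average. Kdr is also an endothelial marker, and it was the only 1 of 3 tested endothelial markers that was called. Nrp1, a co-receptor of VEGF-A and of semaphorins, rose from 13.8 ± 2.7 to 23.6 ± 3.23 FPKM (log2 0.76, limma adjusted p = 0.0135), but lost its call without KO replicate 1 or KO replicate 2 (highest adjusted p = 0.0531, log2 0.60 to 0.88 over the 6 omissions). Its relative Nrp2 was at 33.6 ± 8.45 and 32.6 ± 3.83 FPKM with overlapping groups (log2 -0.02, limma adjusted p = 0.948).

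Vegfa is a classical target of hypoxia-inducible factors, so 20 HIF factors and targets were listed beside it. Of 19 tested, 5 rose and 11 fell with a median log2 of -0.78, and 84.2% passed the test against 37.6% of all genes; scaled by the median of ratios, 4 rose and 12 fell. The falls were led by Pfkfb3, a driver of glycolysis, by the glucose transporter gene Slc2a1 and by the oxygen sensor Egln3. Slc2a1 went from 84.4 ± 4.08 to 31.4 ± 0.14 FPKM (log2 -1.41, limma adjusted p = 2.66e-05) and Egln3 from 7.49 ± 0.825 to 2.70 ± 0.547 (log2 -1.33, limma adjusted p = 0.000854). Pfkfb3 varied within both groups (18.4 ± 7.91 to 5.04 ± 3.18 FPKM, log2 -1.83, limma adjusted p = 0.0225) and lost its call without WT replicate 1, KO replicate 2 or KO replicate 3 and without both replicates 3 (highest adjusted p = 0.0953, log2 -2.27 to -1.45 over the 6 omissions). Hif1a, named here after its values were seen, was at 69.8, 73.7 and 71.9 FPKM in libraries labelled WT and at 27.6, 28.8 and 30.3 in libraries labelled KO (log2 -1.30, limma adjusted p = 4.21e-05). Against this direction, Adm (adrenomedullin, a vasodilator peptide) rose from 2.29 ± 0.43 to 14.9 ± 1.44 FPKM (log2 2.47, limma adjusted p = 3.53e-05), Epas1, which encodes HIF-2 alpha, from 2.42 ± 0.62 to 9.14 ± 1.57 (log2 1.74) and the carbonic anhydrase gene Car9 from 0.949 ± 0.14 to 2.49 ± 0.302 (log2 1.05).

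**Figure D2:**
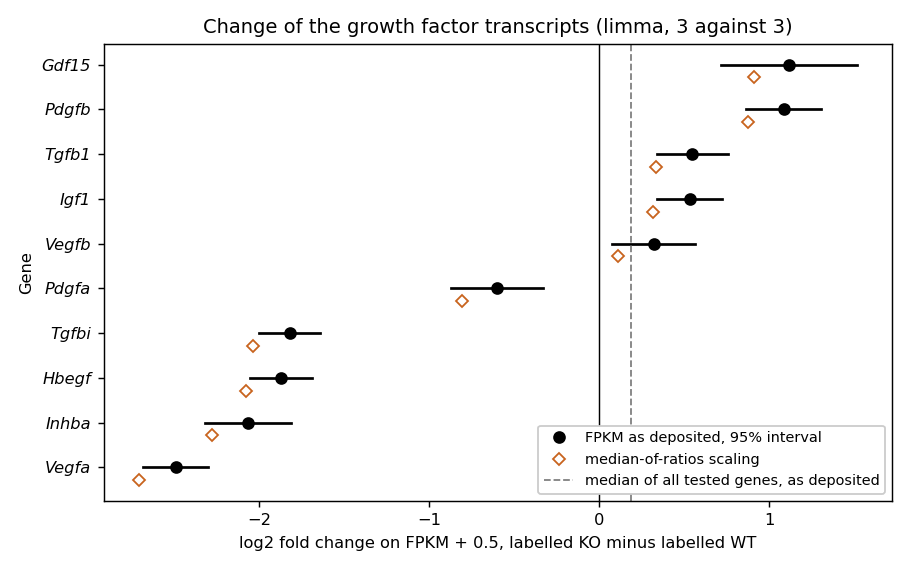
log2 fold change (libraries labelled KO minus libraries labelled WT, on FPKM + 0.5) of the 10 transcripts. Filled circles with lines are the limma estimates with 95% intervals on the FPKM as deposited, open diamonds are the estimates after median-of-ratios scaling, and the dashed line is the median of all tested genes at 0.19. Vegfb is the only gene whose interval reaches across the dashed line, and all diamonds lie to the left of their circles.

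In the TGF-beta and activin branch the ligand Tgfb1 rose and the activin subunit Inhba fell. Inhba, whose product pairs with itself to form activin A, was at 109, 117 and 93.0 FPKM in libraries labelled WT and at 25.9, 25.4 and 23.5 in those labelled KO. The lowest WT library, replicate 3, was still far above the highest KO library. Its mean went from 106 ± 12.2 to 24.9 ± 1.29 FPKM (SD, n = 3), a log2 difference of -2.07 (SE 0.11, limma adjusted p = 2.37e-05) that ranged from -2.28 to -2.06 under other scalings. The gene is on chromosome 13 at 16011851 to 16031621 (plus strand).

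Tgfb1, which encodes the TGF-beta isoform most abundant in leukocytes and platelets, was at 50.4, 45.0 and 45.8 FPKM in libraries labelled WT and at 66.9, 66.0 and 74.3 in those labelled KO. The groups did not overlap, and the mean rose 1.47-fold from 47.1 ± 2.89 to 69.1 ± 4.52 FPKM (log2 0.55, SE 0.09, limma adjusted p = 0.00336). Its log2 difference was 0.36 above the median of all genes and 0.33 to 0.57 under other scalings. The lowest, 0.33, came with median-of-ratios scaling, where the gene was still called. With the rise, Tgfb1 moved from rank 4 among the 10 members in libraries labelled WT to rank 1 in those labelled KO.

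Tgfbi, named for its induction by TGF-beta, went against Tgfb1. Its FPKM was 140.3, 135 and 131 in libraries labelled WT and 39.1, 38.5 and 36.4 in libraries labelled KO, the highest member in the first group and the third in the second. The mean fell from 136 ± 4.60 to 38.0 ± 1.43 FPKM (log2 -1.82, SE 0.07, limma adjusted p = 9.82e-06), 3.57 times lower and between -2.04 and -1.78 on the log2 scale under other scalings. Per library, Tgfbi exceeded Tgfb1 2.88 ± 0.113-fold in libraries labelled WT and stood at 0.552 ± 0.0542 of it in libraries labelled KO, and Inhba relative to Tgfb1 went from 2.26 ± 0.297 to 0.363 ± 0.0405.

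Of 8 tested genes in a list of other superfamily ligands, which also holds the protease gene Bmp1, 4 rose, 1 fell and 3 did not pass (median log2 0.72, with 27.1% of all tested genes called higher). Bmp2 was low in libraries labelled WT (0.200 ± 0.091 FPKM) and reached 5.11 ± 0.528 FPKM in libraries labelled KO, a log2 difference of 3.01 (limma adjusted p = 1.92e-05). Tgfb3 rose from 8.77 ± 2.35 to 28.8 ± 1.70 FPKM (log2 1.69, limma adjusted p = 0.000775) and Inhbb, another activin beta subunit, from 1.68 ± 0.197 to 4.43 ± 0.961 (log2 1.16, limma adjusted p = 0.00226). The fall belonged to Bmp1, whose product trims procollagen (15.0 ± 3.15 to 9.72 ± 0.0689 FPKM, log2 -0.58, limma adjusted p = 0.026), which lost its call without any library but WT replicate 3 (log2 -0.75 to -0.46, highest adjusted p = 0.0798). Scaled by the median of ratios, 4 rose and 2 fell.

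Carriers, activators and inhibitors were mixed, with 6 higher and 3 lower of 14 tested (median log2 0.25). Nrros, which holds latent TGF-beta 1 on myeloid cells, rose from 29.4 ± 2.44 to 56.3 ± 3.29 FPKM (log2 0.93, limma adjusted p = 0.000438), and Ltbp1, which ties latent TGF-beta to matrix, from 5.90 ± 0.679 to 10.7 ± 0.832 (log2 0.81). Fst, which encodes the activin trap follistatin, rose from 1.49 ± 0.14 to 3.05 ± 0.611 FPKM (log2 0.82, limma adjusted p = 0.0059). Its relative Fstl3, also an activin trap, fell from 10.2 ± 1.33 to 7.04 ± 0.473 FPKM (log2 -0.50, limma adjusted p = 0.0168) and lost its call without WT replicate 1, WT replicate 2 or KO replicate 1 (highest adjusted p = 0.0688, log2 -0.61 to -0.44). Relative to Fst, Inhba went from 71.2 ± 4.94 times to 8.44 ± 2.03 times, and relative to Fstl3 from 10.4 ± 0.483 to 3.56 ± 0.375 times. Dcn, a matrix proteoglycan that binds TGF-beta and a fibroblast marker, fell from 2.82 ± 0.574 to 1.11 ± 0.10 FPKM (log2 -1.04, limma adjusted p = 0.00218). Thbs1, whose product can activate latent TGF-beta, was the most abundant of the list and fell from 928 ± 161 to 623 ± 59.4 FPKM (log2 -0.56, limma adjusted p = 0.0265), a call lost without any library but WT replicate 3 (log2 -0.72 to -0.48, highest adjusted p = 0.0992).

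Among receptors and Smads 5 rose and 4 fell of 19 tested (median log2 0.19, equal to that of all genes). Both TGF-beta receptor chains rose: Tgfbr2 was at 13.3, 12.3 and 9.69 FPKM in libraries labelled WT and 32.7, 33.8 and 27.4 in libraries labelled KO (log2 1.38, limma adjusted p = 0.000506), and Tgfbr1 at 17.1, 19.5 and 15.8 against 34.6, 34.3 and 33.1 (log2 0.94, limma adjusted p = 0.00048). Activin receptors did not pass, with Acvr1b at 8.60 ± 0.933 and 9.69 ± 1.38 FPKM (log2 0.16, limma adjusted p = 0.396) and Acvr2a at 2.23 ± 0.28 and 2.65 ± 0.0775 (log2 0.21, limma adjusted p = 0.185). Acvr1b turned negative with median-of-ratios scaling and Acvr2a with quantile normalization. Smad1 rose from 2.41 ± 0.16 to 4.33 ± 0.049 FPKM (log2 0.73). The inhibitory Smads fell, Smad6 from 11.0 ± 0.392 to 4.03 ± 0.315 FPKM (log2 -1.34, limma adjusted p = 8.88e-05) and Smad7 from 12.5 ± 2.63 to 5.46 ± 1.05 (log2 -1.12, limma adjusted p = 0.00509), as did the co-repressor gene Skil (log2 -1.10).

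A list of TGF-beta target genes leaned downwards, with 0 higher, 6 lower and 6 not passed of 12 tested, and a median log2 of -0.46 against 0.19 over all genes. Pmepa1, a feedback regulator of the pathway, was at 33.2, 33.5 and 30.5 FPKM in libraries labelled WT and at 9.90, 9.54 and 9.06 in libraries labelled KO (log2 -1.72, limma adjusted p = 1.78e-05). Id1, a helix-loop-helix protein regulated by BMP and TGF-beta, fell from 31.0 ± 5.9 to 9.97 ± 2.01 FPKM (log2 -1.59, limma adjusted p = 0.000766), and Smad7 and Skil, already given, are in this list too. The 6 not passed, named after their values were seen, were Fn1, Ski, Col1a1, Ccn2, Id3 and Ltbp2 (log2 0.52, 0.25, 0.11, 0.04, -0.10 and -0.42). Scaled by the median of ratios the list still had 0 higher and 6 lower, and without both replicates 3 it had 1 higher and 7 lower.

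The PDGF chains moved apart. Pdgfa was at 16.7, 15.7 and 18.1 FPKM in libraries labelled WT and at 9.60, 10.9 and 12.3 in those labelled KO. Pdgfb was at 8.13, 8.82 and 7.41 FPKM in libraries labelled WT and at 17.8, 17.0 and 18.5 in libraries labelled KO. The groups overlapped for neither gene, and for Pdgfa the KO library nearest to the WT group was replicate 3. Pdgfa fell from 16.8 ± 1.23 to 11.0 ± 1.36 FPKM (log2 -0.60, SE 0.11, limma adjusted p = 0.00685; -0.81 to -0.60 under other scalings), and Pdgfb rose from 8.12 ± 0.706 to 17.8 ± 0.742 (log2 1.09, SE 0.09, limma adjusted p = 0.000242; 0.88 to 1.13). Pdgfa was thus the higher chain in each library labelled WT (2.09 ± 0.337 times Pdgfb) and the lower chain in each labelled KO (0.617 ± 0.0684 times). On chromosome 5, Pdgfa (138976014 to 138997370, minus strand) shares 813 exon bases with 6330403L08Rik, an antisense gene at 2.19 to 3.59 FPKM, and whether the counting used strand is not given in the sources used here.

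Within the other 5 PDGF genes 1 rose, 1 fell and 3 did not pass (median log2 0.12). Pdgfd, a ligand of PDGF receptor beta, was low and rose from 0.680 ± 0.16 to 2.05 ± 0.314 FPKM (log2 1.11, limma adjusted p = 0.00208). Pdgfrb, the receptor of pericytes and fibroblasts that binds PDGF-BB, was at 22.5, 22.4 and 13.4 FPKM in libraries labelled WT and at 12.1, 13.1 and 9.88 in libraries labelled KO, so that WT replicate 3 lay next to the KO group. Its log2 difference of -0.68 (limma adjusted p = 0.0464) lost its call without any library but WT replicate 3 (-0.92 to -0.56 over the 6 omissions, highest adjusted p = 0.135). Pdgfra was at 3.07 ± 0.517 and 3.36 ± 0.0763 FPKM (log2 0.12, limma adjusted p = 0.485), negative with median-of-ratios scaling and with quantile normalization. Both receptors are also markers of fibroblasts and pericytes, of which 3 of 6 tested fell and none rose at the threshold.

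Hbegf, a membrane-bound EGF ligand that is cut free by metalloproteases, changed with little spread. It was at 19.2, 20.1 and 19.1 FPKM in libraries labelled WT and at 5.06, 4.85 and 4.95 in those labelled KO. The SD was 2.76% of the mean in libraries labelled WT and 2.18% in libraries labelled KO, far less than the gap between the groups, and the mean fell from 19.5 ± 0.538 to 4.96 ± 0.108 FPKM (log2 -1.87, SE 0.08, limma adjusted p = 9.94e-06), 3.93 times lower and between -2.08 and -1.93 on the log2 scale under other scalings. It was the lowest member in the libraries labelled KO and the sixth in those labelled WT.

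The rest of the EGF family list held 12 tested genes, of which 0 rose, 5 fell and 7 did not pass (median log2 -0.32). The ligand gene Ereg (epiregulin) fell from 2.51 ± 0.203 to 0.649 ± 0.12 FPKM (log2 -1.39, limma adjusted p = 0.000345). Of the proteases that shed membrane proteins, Adam8 fell from 388 ± 56.2 to 146 ± 8.11 FPKM (log2 -1.40, limma adjusted p = 0.000283) and Adam12 from 4.05 ± 1.25 to 1.09 ± 0.168 (log2 -1.48, limma adjusted p = 0.00287). Adam9, Adam10 and Adam17, named here after their values were seen, did not pass (log2 0.42, 0.19 and -0.38, limma adjusted p = 0.101, 0.141 and 0.229). The receptor Egfr was at 2.31, 2.80 and 1.37 FPKM in libraries labelled WT and at 1.83, 1.86 and 1.57 in libraries labelled KO, with overlapping groups (log2 -0.20, limma adjusted p = 0.502), and passed without WT replicate 3. Erbb4, the other receptor of HB-EGF, was listed at 0 in all 6 libraries.

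Igf1 was among the more abundant members in both groups. It was at 37.7, 39.3 and 35.4 FPKM in libraries labelled WT and at 55.4, 56.0 and 51.8 in those labelled KO. The groups lay well apart, and replicate 3 was the lowest of each. The mean rose 1.45-fold, from 37.5 ± 1.96 to 54.4 ± 2.26 FPKM (log2 0.53, SE 0.08, limma adjusted p = 0.00257), with a log2 difference of 0.32 to 0.55 under other scalings. On chromosome 10 the gene spans 87858265 to 87937042 (plus strand).

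Its carrier moved far more. Igfbp4, a secreted protein that binds IGFs and keeps them from the receptor, was at 14.7, 14.3 and 15.6 FPKM in libraries labelled WT and at 127, 129 and 143 in libraries labelled KO (log2 3.12, SE 0.08, limma adjusted p = 2.08e-06). Igf1 was 2.53 ± 0.239 times Igfbp4 in the first group and 0.411 ± 0.041 times in the second, so that the ligand transcript went from above to below that of this carrier in every library. Of 15 IGF genes tested, 7 rose and 2 fell (median log2 0.61), which became 4 and 2 with quantile normalization (median 0.40). Irs1, an adaptor of the insulin and IGF receptors, rose from 0.845 ± 0.201 to 3.46 ± 0.306 FPKM (log2 1.57, limma adjusted p = 0.000344) and Igf2 from 1.13 ± 0.201 to 2.83 ± 0.292 (log2 1.04, limma adjusted p = 0.00162). Igfbp3 fell from 2.04 ± 0.182 to 0.414 ± 0.137 FPKM (log2 -1.48, limma adjusted p = 0.000537) and Igfbp5 from 5.98 ± 1.93 to 1.85 ± 0.407 (log2 -1.43, limma adjusted p = 0.00514). The receptor Igf1r, at 3.56, 3.51 and 2.25 against 4.54, 4.95 and 3.72 FPKM, did not pass (log2 0.46, limma adjusted p = 0.0961), although it did without both replicates 3.

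Gdf15 was the least abundant member in libraries labelled WT, level with Pdgfb, and had the largest rise. It was at 5.79, 7.61 and 7.57 FPKM in libraries labelled WT and at 14.3, 13.7 and 19.5 in those labelled KO. KO replicate 3 was the highest, and the lowest KO value was well above the highest WT value. The mean rose 2.26-fold from 6.99 ± 1.04 to 15.8 ± 3.17 FPKM (log2 1.12, SE 0.17, limma adjusted p = 0.0026; 0.91 to 1.17 under other scalings), with the largest spread of the 10 members (20.1% of the mean in the libraries labelled KO). Its receptor Gfral, a gene of hindbrain neurons, was listed at 0 in all 6 libraries. Of 8 tested genes in a list of receptor genes of Gdf15 and genes that regulate or accompany it under stress, 2 rose and 0 fell (median log2 -0.11), which became 2 and 3 with median-of-ratios scaling. The risers were Egr1, an immediate early transcription factor (3.27 ± 0.554 to 11.8 ± 1.33 FPKM, log2 1.71, limma adjusted p = 0.000212), and Chac1, a glutathione-degrading enzyme of the ATF4 response (0.544 ± 0.19 to 1.98 ± 0.349, log2 1.25, limma adjusted p = 0.0024). The 6 not passed, named after their values were seen, were Trp53, Ret, Atf3, Cdkn1a, Trib3 and Atf4 itself (log2 0.18, -0.06, -0.17, -0.21, -0.41 and -0.43).

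**Figure D3:**
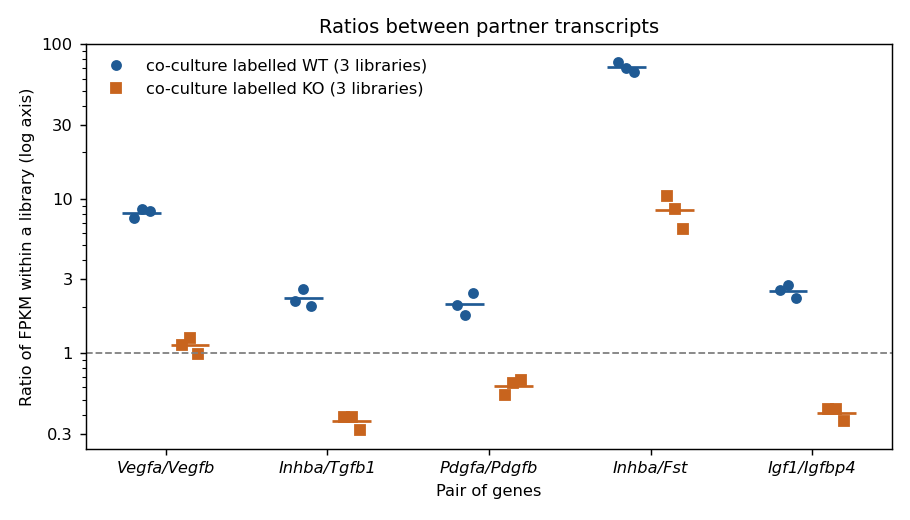
Ratio of FPKM between the transcripts of 5 gene pairs in each of the 6 libraries, on a log axis, with the line at 1 marking equal levels. Circles are libraries labelled WT, squares are libraries labelled KO and bars are group means of 3 libraries. No pair has overlapping groups, and Inhba/Tgfb1, Pdgfa/Pdgfb and Igf1/Igfbp4 pass from above 1 to below 1.

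Added up, the 10 transcripts amounted to 511 ± 16.7 FPKM in libraries labelled WT and to 275 ± 6.65 FPKM in libraries labelled KO (SD, n = 3). The 5 falling members went from 396 ± 14.6 to 99.4 ± 1.60 FPKM and the 5 rising ones from 114 ± 2.96 to 175 ± 8.17 FPKM. The order of the levels changed with it. FPKM is per length, but the length used for each gene is not given in the sources used here. Coding transcripts of Igf1, for instance, run from 510 to 7052 bases. The order between genes, and which gene of a ratio is the higher, rest on those lengths. In the libraries labelled WT it ran Tgfbi, Vegfa, Inhba, Tgfb1, Igf1, Hbegf, Pdgfa, Vegfb, Pdgfb and Gdf15, and only the neighbours Vegfa and Inhba and the neighbours Pdgfb and Gdf15 overlapped in their values. In the libraries labelled KO it ran Tgfb1, Igf1, Tgfbi, Inhba, Vegfa, Vegfb, Pdgfb, Gdf15, Pdgfa and Hbegf, where the neighbours Vegfa and Vegfb, Vegfb and Pdgfb, and Pdgfb and Gdf15 overlapped. Among all tested genes, Vegfa went from the 97.4th to the 83.1st percentile of level and Hbegf from the 82.7th to the 47.3rd, while Pdgfb went from the 64.1st to the 80.6th. With 3 libraries against 3 the exact two-sided permutation test cannot go below p = 0.1, which each of the 10 members and each of the ratios gave.

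A list of 23 other repair and angiogenic factors was set beside the members, and of 21 tested 11 rose and 3 fell (median log2 0.42). The rises were led by Adm, already described, by Cxcl12, a chemokine for progenitor cells (2.74 ± 0.407 to 14.6 ± 1.44 FPKM, log2 2.22, limma adjusted p = 4.06e-05), and by Edn1, the vasoconstrictor endothelin-1 (1.43 ± 0.272 to 6.47 ± 0.493, log2 1.86, limma adjusted p = 0.000104). Among the falls were Osm, an IL-6 family cytokine, at 28.5, 26.4 and 28.7 against 3.90, 3.11 and 3.97 FPKM (log2 -2.77, limma adjusted p = 8.23e-06), and Wnt5a, a secreted signalling protein (5.01 ± 0.893 to 1.64 ± 0.331 FPKM, log2 -1.36, limma adjusted p = 0.00116). With median-of-ratios scaling the list had 8 higher and 5 lower.

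Over the 11 pathway lists, each gene counted once and the members left out, 77 of 134 tested genes passed (57.5%, against 37.6% of all tested genes), 41 higher and 36 lower, with a median log2 of 0.10. Scaled by the median of ratios, 34 were higher and 44 lower. The share was highest in the HIF list (84.2%) and lowest in the Gdf15 list (25%), and these are descriptions with no test between lists.

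**Figure D4:**
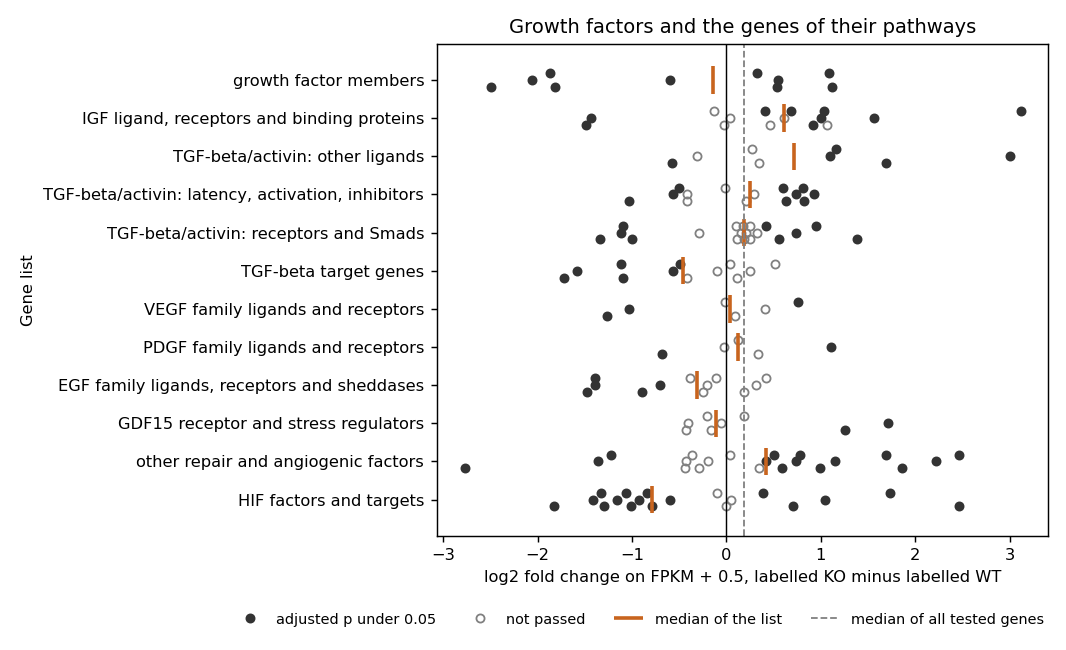
log2 fold change (libraries labelled KO minus libraries labelled WT, on FPKM + 0.5) of every tested gene in the member set and the 11 pathway lists. Filled points passed at an adjusted p under 0.05 in limma, open points did not, orange bars are list medians and the dashed line is the median of all tested genes at 0.19. TGF-beta target genes and the EGF family list have no filled point to the right of 0, and the HIF list has the lowest median (-0.78).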

How the data were processed

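RNA of BMDMs co-cultured with Cd177 WT (n = 3) or Cd177 KO (n = 3) neutrophils was sequenced. The values deposited by the authors are FPKM for each gene in each library, which corrects for length and library total. The submitters' processing notes name fastp 0.17.1, HISAT2 2.1.0 and R 3.4.3, and the quantifier, annotation and genome build are not given in the sources used here. The labels and the methods of the study name different extraction reagents, library kits and sequencers. Of 55335 identifiers, 55154 (99.7%) matched GENCODE M21 (GRCm38), which gave symbols and positions. Ddit3 matched 2 identifiers and was left out.

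The comparison of KO minus WT was fitted with limma 3.58.1 (R 4.3.3; lmFit, eBayes with trend, two-sided, no covariates) to log2(FPKM + 0.5). The fit took 13367 genes whose mean over the libraries reached 0.5 FPKM, and p-values were adjusted over all of them by Benjamini-Hochberg with a threshold of 0.05. The authors tested with DESeq2 at a fold change above 2 and p under 0.05, and that threshold was applied to the limma fit as an alternative. Low values of genes with a single annotated transcript were compared with whole multiples of the smallest step. They lay within 0.1 of one in 39.7% to 43.5% of cases, where 20% would by chance, so the table does not give back whole reads and a count model was not used. The steps implied 17600000 to 20300000 fragments per library, and Pdgfb at least 51 fragments if counted on its shortest coding transcript of 384 bases. The fit was tested on simulated data. Exact permutation tests used scipy 1.17.1.

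The members and the lists were chosen with earlier results of these data known. Named were all 10 members, up to 3 called genes with the largest rise and fall in each pathway list, the receptors of the members, the marker gene with the highest mean in each list, defining markers at 0, Cd177 and Ly6g. A gene that this rule names is not reported here. Hif1a, Cd14, Fcgr1, Adgre1, Mertk, Adam9, Adam10, Adam17 and the gene ratios were chosen after the values were seen. So were the genes of the TGF-beta target and Gdf15 lists that did not pass. Lists are described by counts and medians with no set test. Alternatives covered the pseudocount, the filter, the scaling, how variance was estimated, a block for replicate number, the threshold and each library left out, and, added after seeing the data, both replicates 3 left out.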

Additional observations from a re-analysis of the deposited data

How the results depend on the processing

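Over 21 alternatives none of the 10 members changed direction. Igf1, Tgfb1 and Pdgfa missed only the threshold of a fold change above 2, and Vegfb lost its call in 13, with a log2 difference between 0.11 and 0.41. At a fold change above 2 with an unadjusted p under 0.05, 6 members passed, 2 of them higher, and 42 pathway genes, 18 of them higher. A filter at a mean of 5 FPKM left 45 pathway genes called of 76 tested, 19 of them higher, because fewer genes were tested. Leaving out 1 library at a time gave 9 or 10 members called and 65 to 82 pathway genes. Over all genes the calls ranged from 3489 to 5945 with a library left out, and were 6461 without both replicates 3. Without both replicates 3, the carriers and inhibitors of TGF-beta had 6 higher and 5 lower calls, the Gdf15 list 2 and 2, and the other PDGF genes 2 and 1. Scaling left 9 or 10 members without overlap between groups.

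The replicate numbers are not said to mark a shared animal or day, and the deviations of WT and KO libraries of the same number correlated at 0.116, 0.036 and 0.264, so they were not taken as pairs. With the replicate block, 5934 genes, 10 members and 83 pathway genes were called, against 5027, 10 and 77. The receptor Igf1r passed with the block, as it did without both replicates 3. WT replicate 3 correlated best with KO replicate 3, while WT replicates 1 and 2 each correlated best with the other number.

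FPKM carries no counts, so counting error is not given, and the spread rests on 3 libraries a group.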
